A study of Homo sapiens with 2 samples.

Results

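The expression of 10 genes of cystine uptake and glutathione synthesis was analysed in the human liver cancer line HepG2 after exposure to Padma 28. The genes were chosen by their function, with earlier results of these data known. Every probe set annotated to them was taken, 19 of the 54675 on the array. All 10 had at least 1 probe set of their own, among the 19775 genes that did. One set of cultures received Padma 28, an Indo-Tibetan preparation of many herbs, as ethanolic extract at 218 μg/ml, and the other received the solvent control, 0.9% ethanol (EtOH), both over 18 h. Cells of 3 cultures per treatment were pooled before the RNA was isolated, and 1 Affymetrix Human Genome U133 Plus 2.0 array was hybridised per treatment (n = 1), so the spread between cultures is unknown and no statistical test could be made. The extract was thus compared with its solvent on 2 arrays to ask which genes of this pathway it changes in expression. All values are log2 expression values from GCRMA, and a difference is the Padma 28 value minus the EtOH value, so that a difference of 1 is 2-fold. They are relative to the other transcripts of the same pool, and fewer cells and less RNA per cell cannot be told apart in them.

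Glutathione is a tripeptide of glutamate, cysteine and glycine and the main thiol of hepatocytes, where it detoxifies peroxides and electrophilic drugs. Cysteine, which limits its synthesis, enters the cell as the disulfide cystine in exchange for glutamate or is made from methionine by transsulfuration. Glutamate-cysteine ligase then joins glutamate and cysteine, glutathione synthetase adds glycine, and glutathione reductase recovers glutathione from its oxidised form. Several of these genes are known targets of the transcription factors Nrf2 (NFE2L2), which binds antioxidant response elements, and ATF4, which responds to amino acid shortage.

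The limit for a signal well above background was set 2 log2 units over the most frequent value of each array, at 4.25 with EtOH and 4.35 with Padma 28. The hepatocyte genes ALB, AFP, APOA1, TTR, SERPINA1 and TF lay far above this limit on both arrays, between 12.84 and 16.62. Of 4 markers of other cell types, the leukocyte gene PTPRC and the fibroblast collagen COL3A1 were below it on both arrays, whereas COL1A1 (6.74 and 6.71) and the endothelial PECAM1 (6.49 and 6.81) were above it on both. Between the brightest pair of probe sets of a gene, the difference varied by a median of 0.14 and by up to 0.46 in 90% of 4912 genes. This is the only spread these arrays give, and it is not an error between cultures.

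With Padma 28, the genes for cystine uptake and for the first step of glutathione synthesis were higher, while those for the later steps and for the breakdown of glutathione lay closer to the solvent control. SLC7A11, GCLM, GCLC and CTH were more than 2-fold higher on their brightest probe set. That is 4 of 10 genes, and none was more than 2-fold lower. Over all genes, 0.875% were more than 2-fold higher and 0.384% more than 2-fold lower. With SLC3A2 and GSR, 6 of the 10 were more than 1.5-fold higher, against 3.61% of all genes. The median difference of the 10 genes was 0.81, against -0.02 for all genes. Of the 10, 9 were well above background on both arrays, and over the 10186 genes of that kind 1.28% were more than 2-fold higher. Counted as probe sets, 11 of 19 were more than 2-fold higher and 5 more than 4-fold, compared with 0.757% and 0.0754% of all probe sets with 1 gene. None of the 19 was shared with another gene in the annotation. Because the genes were chosen with earlier results of these data known, these shares describe them and are not a test.

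**Figure D1:**
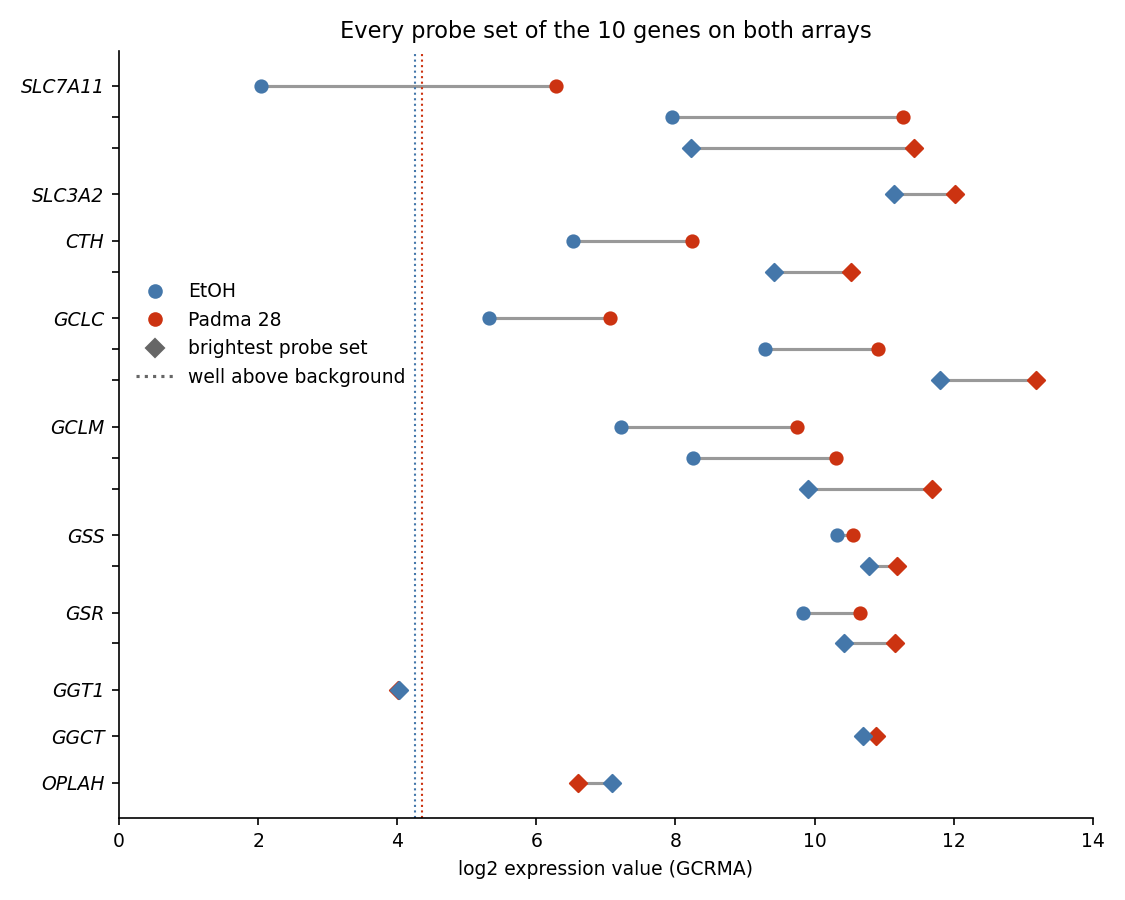
Log2 expression value (horizontal axis) of every probe set of the 10 genes (rows) with EtOH (blue) and Padma 28 (red), from 1 array per treatment. Diamonds mark the brightest probe set of a gene and dotted lines the limits for well above background, 4.25 and 4.35; the widest gaps are those of SLC7A11 and GCLM, GGT1 lies below the limits, and OPLAH is the one gene above them with the red point on the left.

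SLC7A11 encodes the light chain of the cystine/glutamate exchanger, the subunit that carries the substrates. Its brightest probe set had a value of 8.23 with EtOH and 11.44 with Padma 28, which is 9.23-fold higher. A second probe set went from 7.95 to 11.28, or 10.1-fold. Both lay well above background on both arrays and differed from each other by less in their log2 difference (3.21 and 3.33) than the median pair. On the third, the value of 2.05 with EtOH was below background and that of 6.29 with Padma 28 above it, so only an increase of at least 4.10-fold holds there. SLC7A11 ranked 6 among all 19775 genes by the size of its increase.

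SLC3A2 encodes the heavy chain (4F2hc), which anchors this exchanger and other amino acid transporters in the membrane. Its single probe set read 11.14 with EtOH and 12.02 with Padma 28, a difference of 0.88 or 1.84-fold. Both chains of the exchanger were therefore higher on the Padma 28 array, but the heavy chain stayed within 2-fold. It ranked 237 among all genes, and 98.8% of them had a lower difference.

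CTH encodes cystathionine gamma-lyase, which releases cysteine in the last step of transsulfuration. The brighter of its probe sets had values of 9.42 and 10.52, so that CTH was 2.15-fold higher with Padma 28. The dimmer one, at 6.52 and 8.25, gave 3.30-fold. Both were past 2-fold, though they differed from each other by 0.62 on the log2 scale, more than 90% of gene pairs do.

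Glutamate-cysteine ligase, the rate-limiting enzyme of glutathione synthesis, consists of a catalytic and a modifier subunit, and both transcripts were more than 2-fold higher. GCLC, the catalytic subunit, read 11.81 with EtOH and 13.18 with Padma 28 on its brightest probe set, a 2.60-fold difference. The other GCLC probe sets went from 9.29 to 10.91 and from 5.32 to 7.06, or 3.08-fold and 3.34-fold. GCLM, the modifier subunit, which lowers the feedback inhibition by glutathione, had the second largest difference of the 10 genes. Its brightest probe set went from 9.91 to 11.69, which is 3.44-fold, and ranked 26 among all genes. The other probe sets of GCLM read 8.25 and 10.30, or 4.15-fold, and 7.22 and 9.75, or 5.77-fold. The differences of the 3 GCLM probe sets ran from 1.78 to 2.53 and those of the 3 GCLC probe sets from 1.38 to 1.74. The nearest of them, at 1.78 and 1.74, were closer than the median pair of a gene, 0.14 apart. The ranges thus did not overlap, but a gap this small does not set the subunits apart. Whether the subunits differ across cultures was not tested.

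Glutathione synthetase, encoded by GSS, adds glycine in the second step. Its probe sets read 10.78 and 11.18, and 10.32 and 10.55, so that the differences were 0.40 and 0.23. Neither was as large as the smallest difference of either ligase subunit. GSR encodes glutathione reductase, which uses NADPH to recover glutathione. It went from 10.43 to 11.16 on the brighter probe set and from 9.83 to 10.65 on the other, or 1.66-fold and 1.77-fold. The 2 probe sets of GSR thus differed by only 0.09, the closest pair among the 10 genes. GSR remained within 2-fold, but 97.9% of all genes had a lower difference.

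The enzymes of the gamma-glutamyl cycle, through which glutathione is taken apart and its amino acids are recovered, were within 2-fold. GGCT, a gamma-glutamylcyclotransferase, which releases 5-oxoproline, read 10.69 with EtOH and 10.88 with Padma 28, a difference of 0.19. OPLAH, 5-oxoprolinase, which returns glutamate from it, was the only one of the 10 genes that was lower and above background. Its values were 7.09 and 6.60, a difference of -0.49 or 1.40-fold, and 2.34% of all genes had a more negative one. GGT1, the surface enzyme gamma-glutamyltransferase that starts the breakdown of exported glutathione, was represented by a single probe set at 4.02 with EtOH and 4.01 with Padma 28. Both are below background, and no fold change is given. SLC3A2, GGT1, GGCT and OPLAH each rest on 1 probe set.

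**Figure D2:**
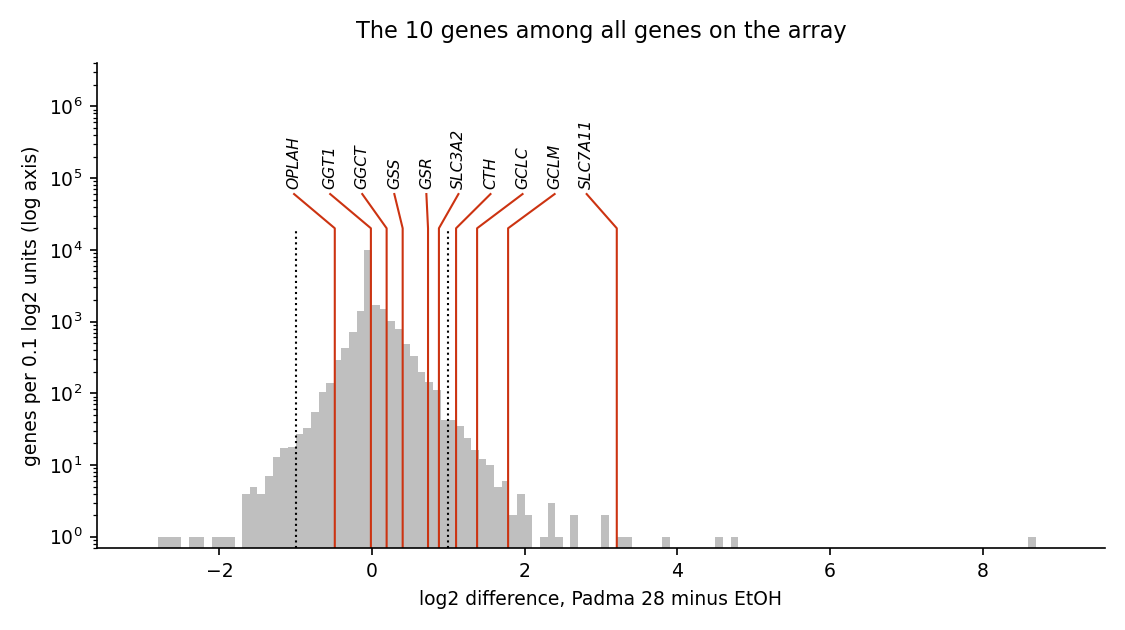
Number of genes (vertical axis, log scale) by log2 difference, Padma 28 minus EtOH (horizontal axis), for the brightest probe set of all 19775 genes, from 1 array per treatment. Red lines mark the 10 genes and dotted lines 2-fold; CTH, GCLC, GCLM and SLC7A11 lie beyond the right dotted line, where 0.875% of all genes are found.

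In the plot of all genes, the members run from OPLAH at -0.49 to SLC7A11 at 3.21. From the highest to the lowest signed difference, the 9 genes above background were SLC7A11, GCLM, GCLC, CTH, SLC3A2, GSR, GSS, GGCT and OPLAH. Over the probe sets well above background on both arrays, SLC7A11 (3.21 and 3.33) did not overlap GCLM, while the lower limit of the other SLC7A11 probe set, 4.10-fold, lies within the range of GCLM. In turn, GCLC overlapped CTH (1.10 to 1.72), so the order of those neighbours depends on the probe set. All 6 genes with several probe sets had differences of 1 sign.

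The promoters of 5 members, with windows taken from the RefSeq table (GRCh38.p14), were searched for motifs of both transcription factors. All of these transcripts except GGT1, which was below background, were higher with Padma 28. OPLAH, which was lower, was not among them. Windows of 300 bases, 250 before and 50 after a transcript start, were searched for these 5 genes, namely GCLM, GCLC, CTH, SLC3A2 (3 starts) and GGT1 (2 starts). The motifs were the core of the antioxidant response element, TGACNNNGC, and the C/EBP-ATF response element (CARE), TGATGNAA, on both strands. The 150 bases before the start are shown, 5′ to 3′ on the strand of the gene and with motif matches in capitals, for both ligase subunits and for the heavy chain start with matches. They lie at chr1:93909431-93909580 (minus strand, GCLM), chr6:53545102-53545251 (minus strand, GCLC) and chr11:62881549-62881698 (plus strand, SLC3A2).
GCLM: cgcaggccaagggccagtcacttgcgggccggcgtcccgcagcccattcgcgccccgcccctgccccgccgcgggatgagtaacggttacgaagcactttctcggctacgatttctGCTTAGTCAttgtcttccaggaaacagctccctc
GCLC: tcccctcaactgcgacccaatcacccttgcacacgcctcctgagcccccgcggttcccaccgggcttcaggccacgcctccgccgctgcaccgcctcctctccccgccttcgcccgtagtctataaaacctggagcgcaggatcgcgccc
SLC3A2: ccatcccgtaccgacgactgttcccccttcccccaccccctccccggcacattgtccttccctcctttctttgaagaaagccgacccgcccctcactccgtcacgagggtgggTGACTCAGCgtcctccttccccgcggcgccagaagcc

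GCLM held the antioxidant response element core on the opposite strand, read there as TGACTAAGC, between 34 and 26 bases before the start. SLC3A2 held it on its own strand, between 37 and 29 bases before this start, and in addition a CARE match on the opposite strand of the same window, from base 38 to base 45 of the transcript. The other 2 SLC3A2 windows held neither. In GGT1, which was below background, 1 of the 2 windows held the core. The GCLC and CTH windows held neither motif, and both genes were more than 2-fold higher. Only the windows were searched, so whether these genes have either motif elsewhere was not tested. Windows on chromosome 8 were left out of the search by gene, so no gene there was searched. The core occurred in 13.3% of all 35116 windows and CARE in 3.62%, with those on chromosome 8 included. The core in 3 of 8 windows and CARE in 1 are thus a description of a few windows and name no binding site. Of 45 other pathway genes, with 71 windows, 9 held the core, and 4 held CARE, namely SLC1A4, SLC1A5, CHAC1 and GOT1. These counts are by gene and the shares above by window, so they cannot be set against each other. The motifs did not overlap each other in any of these windows.

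Around the 10 genes, 52 further genes that supply, use, move or break down cysteine and glutathione were taken, in 6 lists. Of these, 51 had a probe set of their own, ABCC4 alone was more than 2-fold higher, and no gene was lower by more than 2-fold. Their median was 0.11, compared with 0.81 for the 10 genes and -0.02 for all genes, and 8 were below background on both arrays.

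Upstream of CTH, none of the 8 genes of the methionine cycle and transsulfuration was past 2-fold, but 7 had values above 0 and the median was 0.38. All 8 were well above background on both arrays. Of the 10186 genes of that kind, 5939 had values above 0, with a median of 0.06 over all of them. The highest was MAT1A, the liver form of methionine adenosyltransferase, which went from 10.42 to 11.16, a difference of 0.74. The glycine methyltransferase GNMT was at 0.65 and the betaine-homocysteine methyltransferase BHMT at 0.62. CBS, cystathionine beta-synthase, which makes the substrate of CTH, went from 8.18 to 8.71 on its brightest probe set, a difference of 0.54, and from 7.55 to 8.41 on another, 0.86. Both steps of transsulfuration were thus higher on the Padma 28 array, with CBS within 2-fold.

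Of 11 other transporters of cystine, cysteine and related amino acids or partners of SLC3A2, none was past 2-fold and 4 were below background on both arrays. The neutral amino acid transporter SLC1A4 went from 10.63 to 11.50, or 1.83-fold, and 1 of its 5 probe sets was past 2-fold, at 2.06-fold. SLC7A9, the light chain of the renal cystine transporter, was at 0.64, the glutamine transporter SLC1A5 at 0.63 and CTNS, the lysosomal cystine exporter, at 0.56. Of the other light chains that pair with SLC3A2, named here after their values had been seen, SLC7A5 was at 0.23, SLC7A6 at -0.27 and SLC7A8 at -0.02, while the other SLC7A6 probe sets were both at -0.66, and SLC7A7 and SLC7A10 were below background. The highest of them, SLC7A5, was thus far below the 3.21 of SLC7A11.

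The lists of glutathione breakdown and of cysteine use had medians of -0.03 over 9 genes and 0.10 over 10 genes, and none of their members passed 2-fold. In the breakdown list, 4 genes were below background on both arrays, and the median of the 5 above it was 0.004. All 10 genes of cysteine use were above it, and the median of all genes of that kind was 0.06. CHAC2, a glutathione-specific cyclotransferase, was 1.51-fold higher, and its relative CHAC1, known as a target of ATF4 and named after its value had been seen, was below background on both arrays (2.18 and 2.15). The aminopeptidase ANPEP was at -0.43, the dipeptidase CNDP2 at 0.38, and GGT7, related to GGT1, at -0.45 on its brightest probe set but at -0.08 and -0.06 on the others. In cysteine use, SQOR, which oxidises hydrogen sulfide in mitochondria, was 1.66-fold higher, followed by ETHE1 at 0.45, the cysteine desulfurase NFS1 at 0.32 and the aminotransferase GOT1 at -0.27. CDO1, cysteine dioxygenase, which opens the main route of cysteine breakdown in liver and is named after its value had been seen, read 10.91 on both arrays.

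The 6 genes of glutathione transport, all well above background on both arrays, had values from 0.02 to 1.13 on their brightest probe sets, with a median of 0.28. Of the 10186 genes of that kind, 5939 had values above 0, and their median was 0.06. ABCC4, an export pump that also carries glutathione, went from 6.36 to 7.49, or 2.18-fold. Another of its 4 probe sets was below background with EtOH and at least 1.75-fold higher, and the other 2 were below background on both arrays. The canalicular pump ABCC2 was at 0.44 and ABCC5 at 0.43. SLC25A40, a mitochondrial glutathione carrier, was at 0.12 on its brightest probe set but at -0.30 on the other, which was also well above background on both arrays. The glutaredoxins, which reduce protein disulfides with glutathione, were within 2-fold. GLRX2 was at 0.50, GLRX at 0.46 and GLRX3 at 0.46, and the glyoxalase GLO1, which uses glutathione to clear methylglyoxal, was at 0.29. GLRX5 (0.25), HAGH (-0.10) and ESD (-0.01) are named only to complete the list. The median of the 7 glutaredoxin and glyoxalase genes was 0.29, against 0.06 for all genes well above background on both arrays, as these 7 were.

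**Figure D3:**
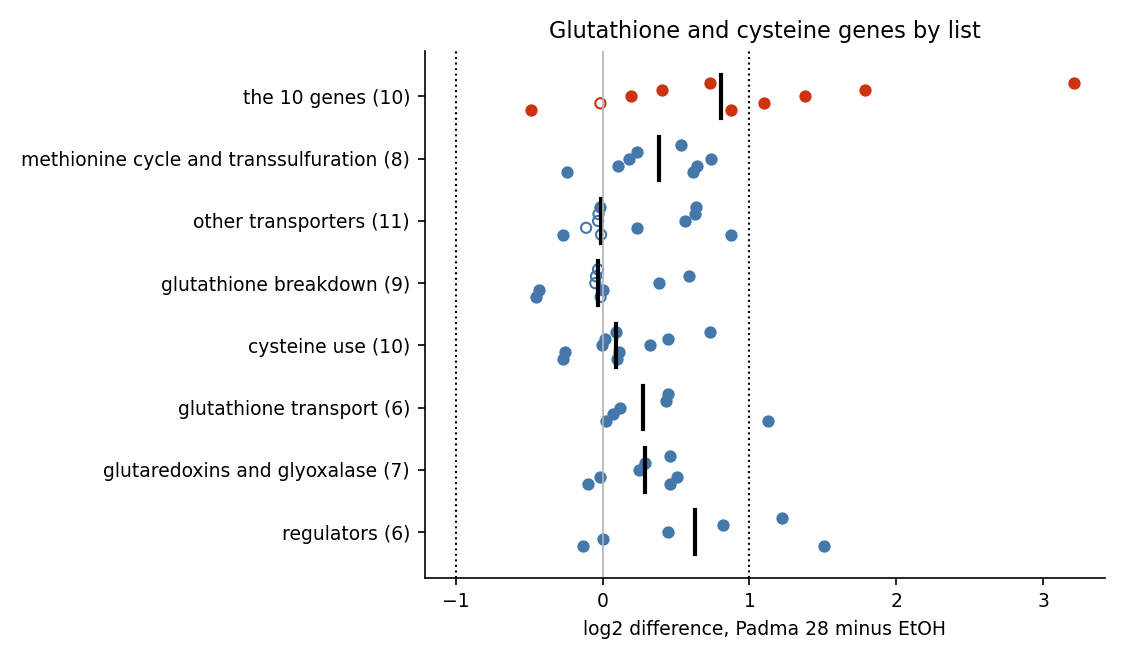
Log2 difference, Padma 28 minus EtOH (horizontal axis), of the genes of 8 lists (rows; brackets give how many genes had a probe set), from 1 array per treatment. Each point is the brightest probe set of a gene, open where both arrays were below background, black bars are medians and dotted lines mark 2-fold; the 10 genes (red, median 0.81) reach furthest to the right, and only ABCC4 of the 6 lists below them and a pair of the regulators pass the line.

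Among 6 regulators of these genes, DDIT3 and TRIB3 were more than 2-fold higher, against 0.875% of all genes. All 6 were well above background on both arrays, and over all genes of that kind the share was 1.28%. The median of the 6 regulators was 0.63, against -0.02 for all genes. NFE2L2 itself read 13.55 with EtOH and 13.42 with Padma 28, a difference of -0.13. KEAP1, the adaptor that directs Nrf2 to degradation, was at 0.44, and BACH1, a repressor at antioxidant response elements, at 0.00. ATF4 went from 12.49 to 13.31, or 1.76-fold. Its targets DDIT3, a transcription factor of the stress response, and TRIB3, a pseudokinase, were 2.84-fold and 2.34-fold higher. No protein was measured on the arrays, and the part of either factor in these differences was not tested.

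**Figure D4:**
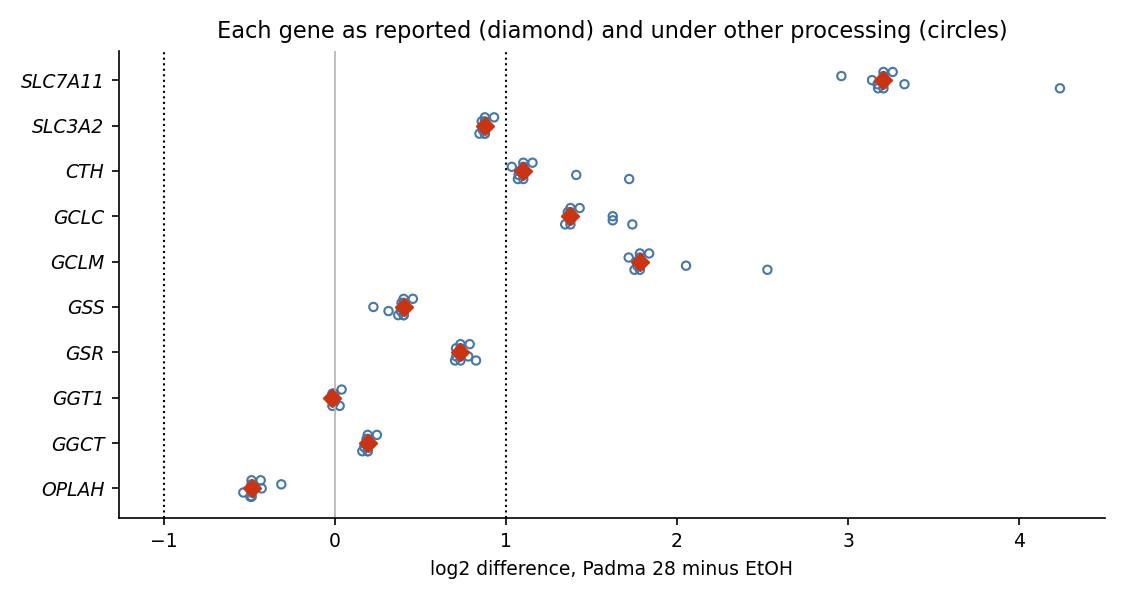
Values of the log2 difference, Padma 28 minus EtOH (horizontal axis), for the 10 genes (rows) as reported (red diamonds) and under each other way of processing that gave a value (open circles), from 1 array per treatment, with dotted lines at 2-fold. No gene crosses the lines at 2-fold, and GGT1, below background, lies at 0.

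The plot of the processing alternatives shows how far each value moved. SLC7A11 was lowest at 2.96, with 64 added to both linear values, and was at 3.33 with the median over its probe sets. Its circle at 4.24 is the probe set below background with EtOH, for which only the lower limit of 4.10-fold holds. GCLM ranged from 1.72 to 2.53, GCLC from 1.35 to 1.74 and CTH from 1.03 to 1.72, so that CTH came closest to 2-fold. OPLAH stayed between -0.54 and -0.31, and SLC3A2 between 0.85 and 0.93.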

How the data were processed

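For each treatment, 3 cultures were pooled and their total RNA was hybridised to 1 array. The values were deposited by the authors on the log2 scale for 54675 probe sets, after GCRMA, which corrects background by a model of the probe sequence, normalizes by quantiles and summarizes by median polish. Versions 2.28.0 of GCRMA and 2.15.1 of R are given in the processing notes of the submitters, and the paper gives earlier ones and an unspecific filter, which was not applied here. At any rank, the sorted arrays lay within 0.099 of each other, and the number of arrays limits the precision.

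Probe sets were named from the platform annotation, with symbols updated through RefSeq (21304 of 21359 Entrez identifiers matched): 41097 had 1 gene, 1801 several and 11777 none. The brightest probe set of its own, by the mean of both arrays, stood for a gene. Background was the most frequent value in bins of 0.1 plus 2 log2 units, and a gene above it on 1 array only has a fold change against the limit of the other.

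The members, lists and rules were chosen with earlier results of these data known. The genes named are all members and regulators, others past 2-fold and up to 4 with the largest difference per list. The alternatives were the probe set of the largest difference, the median over probe sets, 16 or 64 added to linear values, centring on the median or by loess (span 0.3), repeated quantile normalization, leaving out _x_at and _s_at probe sets, counting shared ones, filters at 2 or 3 log2 units, and 1.5-fold. The steps were tested on simulated data, with set differences past the threshold that were equal for all probe sets of a gene. That checks the calculation and not the precision of the arrays. The tools were matplotlib 3.10.9, statsmodels 0.14.6, pandas 2.3.3 and numpy 2.4.6 under Python 3.11.15.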

Additional observations from a re-analysis of the deposited data

How the results depend on the processing

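With 1 array per treatment, no alternative gives an error between cultures, and differences between the pools and effects of the extract cannot be told apart. Of the 10 genes, 4 were more than 2-fold higher and none more than 2-fold lower under each of the 12 alternatives at that threshold. The filters could not change this count, since the 4 genes lay above every limit. Neither could the counting of shared probe sets, since these genes had none. Every probe set of the 4 genes was more than 2-fold higher, and none of the other 6 genes had such a probe set. The alternatives that choose among probe sets could therefore not change the count either. At 1.5-fold, 6 of the 10 were higher, as were 3.61% of all genes. The median of the 10 genes was 1.10 without _x_at and _s_at probe sets, which left 7 genes. Of the other pathway genes, 2 were more than 2-fold higher with the probe set of the largest difference, 0 with the median over probe sets, 0 with 16 and 0 with 64 added, and 9 at 1.5-fold. The sign of GGT1, below background on both arrays, changed under 2 alternatives. No paired analysis was possible because each treatment has 1 array.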

Other observations

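In the genes with several probe sets, counting those well above background on both arrays, the dimmest probe set with EtOH gave the largest difference in 5 of 6 (SLC7A11, CTH, GCLC, GCLM and GSR), with GSS the other way round. For SLC7A11, GCLC, GCLM and CTH, the second brightest probe set exceeded the brightest, in 4 of 4 genes. Over all 46 genes whose brightest probe set was more than 2-fold higher and whose second brightest was also higher, both well above background, this was so in 15 (32.6%), these 4 included. Over the probe sets well above background on both arrays, the brightest therefore gave the lowest difference for SLC7A11, GCLC, GCLM and CTH.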
